A study of Mus musculus with 96 samples.

Results

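Spleen macrophages occupy separate compartments, and 10 genes that mark them were followed here in mice with collagen-induced arthritis. The 3 marginal zone genes were Cd209b, Marco and Siglec1, and the 7 red pulp genes were Vcam1, Mrc1, Spic, Cd163, Timd4, Hmox1 and Slc40a1. All 10 were chosen by name and all 10 had a probe, out of 16593 genes with a probe of their own on the array. They had 14 probes, 3 for Cd209b and 2 each for Spic and Cd163, and the brightest probe of a gene carries its main value.

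The marginal zone is the border between the white pulp, where lymphocytes gather, and the red pulp, where blood is filtered. Marginal zone macrophages carry the C-type lectin Cd209b (SIGN-R1) and the scavenger receptor Marco and take up bacterial polysaccharides and particles from the blood. Marginal metallophilic macrophages line the inner edge of the same border and carry the sialic acid receptor Siglec1 (CD169). Red pulp macrophages engulf old red cells, break down their haem and return the iron to the blood, and their development depends on the transcription factor Spic.

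Whole spleen and whole blood were taken from 48 male mice, and each of the 96 samples was hybridised to its own Illumina bead array. Wild type mice of the strain C57BL/10.Q/rhd were compared with C57BL/10.Q/rhd.Ncf1m1J mice, which carry a mutation of Ncf1, the gene of an organising subunit of the phagocyte NADPH oxidase. Mice of both genotypes were sampled on day 15 or on day 44 after immunization, giving 4 groups of 12 mice, 6 from each of 2 experiments that used different RNA extraction kits. All mice were immunized, no animals without immunization were analysed here, and the mutation is carried by the whole animal, so no value separates macrophages from other cells. In a whole organ, fewer macrophages and less RNA per macrophage cannot be told apart.

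Values are log2 intensities, and a level is always that of 1 probe. Differences came from a limma fit with 4 groups and the experiment as terms, and a gene was called when its Benjamini-Hochberg adjusted p over all 16593 genes was under 0.05. Arrays give no read depth, so the number of mice limits the precision. As a reference for an unexpressed gene, the 1143 probes of odorant receptors had a 95th percentile log2 level of 6.33 in spleen and 6.31 in blood. In 5 spleens, all of experiment I, transcripts of the exocrine pancreas were raised (2 wild type and 1 mutated spleen on day 15, 2 wild type spleens on day 44), and results are given with and without them where they differ. In experiment I, another 3 spleens of day 15 (2 mutated, 1 wild type) stood apart from the rest of their groups, as described with the day results. Ncf1 itself was 0.86 ± 0.06 (log2 difference ± SE) lower in mutated spleens (limma adjusted p = 1.9e-14), in the direction of the labels.

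Promoter sequences are shown for a pair of genes of each compartment. RefSeq gave the 250 bases before the start for 6 of the 10 genes, on build GRCm38.p6. Of these 6, Cd209b and Marco are marginal zone genes, of which Cd209b was called for genotype and Marco was not (the difference between them was not tested), and Mrc1 and Spic are red pulp genes that were both lower on day 44. They were read at chr8:3926842-3927091 on the minus strand for Cd209b, chr1:120505025-120505274 on the minus strand for Marco, chr2:14229164-14229413 on the plus strand for Mrc1 and chr10:88683024-88683273 on the minus strand for Spic. Each is written 5′ to 3′ in the direction of its gene, and capitals mark a match on either strand to GAGGAA or to TGACNNNGC. GAGGAA is a form of the site bound by Ets factors of the PU.1 and Spic type, and only this form is called the Ets core here. Other forms of that site were not searched. TGACNNNGC is the core of the antioxidant response element that NRF2 binds.
Cd209b: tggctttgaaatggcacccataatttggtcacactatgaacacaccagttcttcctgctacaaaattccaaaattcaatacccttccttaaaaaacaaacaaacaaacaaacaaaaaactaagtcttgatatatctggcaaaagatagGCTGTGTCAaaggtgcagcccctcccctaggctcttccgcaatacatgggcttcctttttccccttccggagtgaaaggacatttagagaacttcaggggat
Marco: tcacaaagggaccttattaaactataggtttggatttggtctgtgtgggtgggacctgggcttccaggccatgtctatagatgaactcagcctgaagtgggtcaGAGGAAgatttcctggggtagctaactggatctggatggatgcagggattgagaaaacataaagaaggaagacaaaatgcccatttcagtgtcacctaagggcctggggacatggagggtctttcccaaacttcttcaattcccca
Mrc1: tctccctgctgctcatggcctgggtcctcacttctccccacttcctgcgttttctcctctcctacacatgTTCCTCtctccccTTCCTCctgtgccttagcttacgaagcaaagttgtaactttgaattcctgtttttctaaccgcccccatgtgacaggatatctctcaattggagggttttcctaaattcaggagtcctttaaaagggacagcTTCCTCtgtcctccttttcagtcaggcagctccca
Spic: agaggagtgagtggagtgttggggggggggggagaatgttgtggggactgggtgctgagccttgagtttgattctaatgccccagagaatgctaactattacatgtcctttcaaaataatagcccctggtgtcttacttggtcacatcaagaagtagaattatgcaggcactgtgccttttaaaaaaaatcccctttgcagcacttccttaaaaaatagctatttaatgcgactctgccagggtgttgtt
Cd209b held 1 match to the antioxidant core, on the minus strand from 102 to 94 bases before the start, and no match to GAGGAA. Marco held 1 Ets core, from 146 to 141 bases before its start. Mrc1 held 3 Ets cores on the minus strand, which therefore read TTCCTC in the printed strand, from 180 to 175, from 167 to 162 and from 35 to 30 bases before its start. The Spic stretch held neither, and the stretches of Cd163 and Timd4 held neither. Among 32851 promoter stretches of the same length, 23.3% held the Ets core and 10.2% the antioxidant core, so both are common letters and a match is not a site.

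Mutation of Ncf1 went with a lower level of Cd209b and with no called change in the other 9 genes. Cd209b, the lectin of marginal zone macrophages, was 1.62-fold lower in mutated spleens. The second marginal zone gene, Marco, and the metallophilic marker Siglec1 did not pass the test, and neither did any of the 7 red pulp genes.

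In wild type spleens the log2 level of Cd209b had a lowest value of 8.75, a median of 9.26 and a highest value of 9.69 on day 15. In mutated spleens of day 15 these values were 7.71, 8.53 and 9.39. The groups overlapped, and the highest mutated spleens lay within the wild type range. On day 44 the lowest, median and highest levels were 8.45, 9.08 and 10.03 in wild type spleens. In mutated spleens of day 44 they were 7.98, 8.31 and 9.17. Set against wild type spleens of the same day and experiment, 22 of the 24 mutated spleens lay below the wild type median. The 2 exceptions were of experiment I on day 15, where 3 of 6 mutated spleens lay below the lowest wild type spleen, while in each of the other 3 sets of day and experiment 5 of 6 did.

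Over both days the difference in Cd209b was -0.70 ± 0.11 (log2, ± SE, 24 mice against 24; limma adjusted p = 1.3e-05). Of all genes 10.5% were called in this comparison, 939 higher and 809 lower, so 1 called gene among 10 is a share near the background. On day 15 the difference was -0.65 ± 0.16 (limma adjusted p = 0.016), in a comparison where 2.47% of genes were called. On day 44 it was -0.75 ± 0.16 (limma adjusted p = 0.0017), where 5.19% of genes were called. The genotype difference did not differ detectably between the days. The test of that difference called 0 members and 0% of genes, against 363 genes at an unadjusted p under 0.05. That test pooled unlike experiments. In experiment I the Cd209b difference was -0.34 on day 15 and -0.90 on day 44, and in experiment II it was -0.96 and -0.60. None of these values had a limma adjusted p under 0.05.

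Both experiments showed the lower Cd209b level on their own, over both days together. The difference was -0.62 ± 0.15 in experiment I (limma adjusted p = 0.021) and -0.78 ± 0.14 in experiment II (limma adjusted p = 0.0017). The test of a different genotype effect in the 2 experiments called 0% of genes, with 487 at an unadjusted p under 0.05, and gave -0.16 ± 0.22 for Cd209b. Leaving out each mouse in turn kept the call over both days in 48 of 48 fits, with differences from -0.74 to -0.66. Without the 5 spleens with pancreas transcripts it was -0.67 (limma adjusted p = 0.00015) over both days, while on day 15 alone the adjusted p then rose to 0.069. Without the 3 spleens of day 15 that stood apart it was -0.76 (limma adjusted p = 7.3e-06). Those 3 were picked after the values were seen and held the mutated spleen with the highest Cd209b level of day 15 (9.39). The larger difference without them follows in part from that choice.

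**Figure D1:**
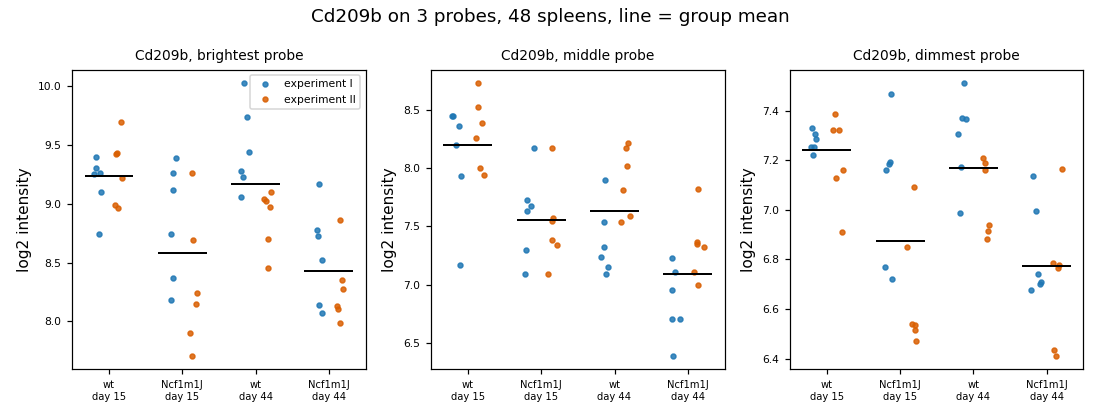
Log2 intensity of the 3 Cd209b probes (panels, brightest first) in 48 spleens by genotype (wt or Ncf1m1J) and day; each point is 1 mouse, coloured by experiment, and lines are group means. On each probe the mean of the mutated mice lies below that of the wild type mice of the same day; differences over both days were -0.70, -0.59 and -0.38.

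All 3 Cd209b probes were lower in mutated spleens. When each probe was tested on its own, over 25697 probes, the brightest gave -0.70 ± 0.11 (limma adjusted p = 1.6e-05), the second -0.59 ± 0.10 (adjusted p = 4.2e-05) and the dimmest -0.38 ± 0.06 (adjusted p = 1.6e-05). The size of the difference was smaller on the dimmer probes, whose mean spleen log2 levels were 7.62 and 7.01, against 8.85 on the brightest. On the linear scale, the difference was 1.57-fold on day 15 and 1.68-fold on day 44 for the brightest probe.

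Marco and Siglec1 had smaller genotype differences. For Marco, the lowest, median and highest log2 levels were 7.38, 8.12 and 9.05 in wild type spleens of day 15, and 7.30, 7.96 and 8.70 in mutated ones. On day 44 they were 7.18, 8.08 and 8.96 in wild type and 7.35, 7.90 and 8.59 in mutated spleens. These ranges mix the experiments, and they overlapped. Within experiment II, 3 of 6 mutated spleens lay below the lowest wild type spleen on each day, and 5 of 6 on day 15 and 6 of 6 on day 44 lay below the wild type median. Within experiment I, 1 of 6 on day 15 and 0 of 6 on day 44 lay below the lowest wild type spleen, and 4 and 3 of 6 below the median. Over both experiments the difference of -0.16 ± 0.08 (95% interval -0.31 to -0.01) did not pass (limma adjusted p = 0.20). Marco differed by -0.32 ± 0.11 in experiment II (adjusted p = 0.072) and by -0.00 ± 0.09 in experiment I. Siglec1 differed by -0.05 ± 0.07 (95% interval -0.19 to 0.10, limma adjusted p = 0.80). Within the same mice, the Cd209b difference exceeded that of Marco by -0.54 ± 0.12 and that of Siglec1 by -0.65 ± 0.13, on the log2 scale and given with no test because Cd209b stands out by its own value.

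Among the red pulp genes, Cd163, the receptor for haemoglobin bound to haptoglobin, had the most negative genotype difference, -0.31 ± 0.14 (95% interval -0.58 to -0.04, limma adjusted p = 0.16). Its lowest, median and highest levels on day 44 were 8.28, 8.98 and 9.72 in wild type and 7.87, 8.89 and 9.18 in mutated spleens. The ranges overlapped, and the second Cd163 probe, at 5.99 in spleen, lay below the odorant receptor reference of 6.33. Without the 3 spleens of day 15 that stood apart, Cd163 was called (-0.38, limma adjusted p = 0.015). Those 3 were picked after the values were seen and held 2 of the 6 mutated spleens of experiment I on day 15. The mannose receptor Mrc1 differed by -0.18 ± 0.09 (adjusted p = 0.25), Spic by -0.17 ± 0.09 (adjusted p = 0.30), the adhesion molecule Vcam1 by -0.12 ± 0.09 (adjusted p = 0.50) and Timd4, a phosphatidylserine receptor for dying cells, by -0.08 ± 0.07 (adjusted p = 0.56), all in limma. The haem-degrading enzyme Hmox1 differed by 0.17 ± 0.10 (adjusted p = 0.37) and the iron exporter Slc40a1, ferroportin, by 0.07 ± 0.09 (adjusted p = 0.75). Of the 10 differences 8 were negative, and 9 of the 10 missed the threshold. The median difference was -0.16 over the 3 marginal zone genes and -0.12 over the 7 red pulp genes, beside -0.01 over all genes.

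**Figure D2:**
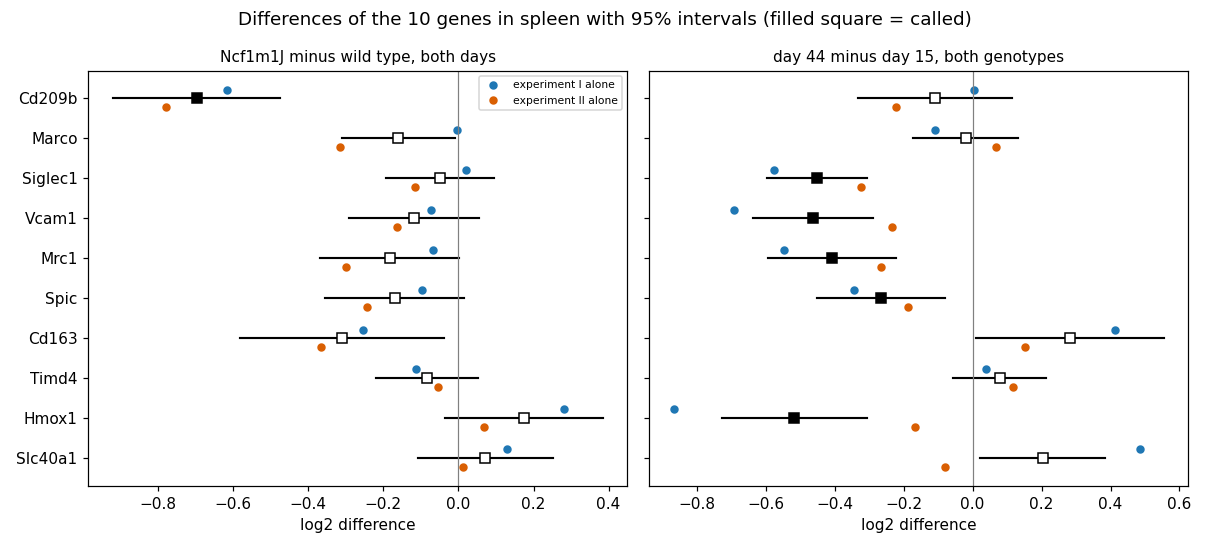
Log2 differences (x axis) of the 10 genes (rows) in spleen, mutated minus wild type on the left and day 44 minus day 15 on the right; squares are estimates over 48 spleens with 95% intervals, filled where the limma adjusted p was under 0.05, and dots are the 2 experiments fitted alone. For genotype only Cd209b is filled (-0.70), and for day 5 genes are filled, all lower on day 44.

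The genotype difference in Cd209b stood beside broader shifts in spleen composition markers. Over both days 8 of 8 neutrophil precursor genes rose in mutated spleens (median difference 1.82) and 9 of 11 erythroid genes rose (median 0.96), while 7 of 8 T cell genes (median -0.60) and 6 of 7 B cell genes (median -0.46) fell. On day 44 the mean log2 level of the neutrophil precursor list ran from 8.94 to 11.21 in wild type and from 11.14 to 12.91 in mutated spleens, and that of the T cell list from 8.68 to 9.53 and from 8.18 to 8.69. Their part in the Cd209b difference was not tested. All neutrophil precursor genes and 10 of the 11 erythroid genes were above the odorant receptor reference in spleen.

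Neither pan-macrophage genes nor further red pulp genes were called for genotype. Of 13 measured pan-macrophage genes 0 were called for genotype, with a median difference of -0.05 and a range from -0.16 to 0.27. Of all genes 10.5% were called, and 11 of these 13 were above the odorant receptor reference. Of 8 further red pulp genes, 7 of them above that reference, 0 were called. Among them were Itgad (-0.10 ± 0.07), an integrin of red pulp macrophages, and Adgre1 (-0.08 ± 0.09), which encodes F4/80. The neighbours of Cd209b in the lectin cluster, Cd209a, Cd209c, Cd209d and Cd209e, were also not called, and of these 4 only Cd209d had a level above the odorant receptor reference (6.44), so the other 3 carry little information.

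For genes of the marginal zone surroundings, counts are to be read against the 10.5% of all genes called for genotype. Of 12 genes of the niche that holds marginal zone cells 3 fell in mutated spleens, namely Ltb, a cytokine gene (-0.52 ± 0.13), Madcam1, an adhesion molecule of marginal sinus lining cells (-0.25 ± 0.08), and the transcription factor gene Nkx2-3 (-0.19 ± 0.07), with limma adjusted p of 0.0058, 0.023 and 0.048. Of 9 marginal zone B cell genes 0 were called, and only 6 of the 9 were above the odorant receptor reference. Of 12 genes for the uptake of dying cells 2 fell, Gas6, the bridging ligand of the TAM receptors (-0.38 ± 0.07), and Havcr1 (-0.10 ± 0.03), which was close to the background reference at 6.43. Of 10 endothelial and stromal genes 2 fell, Dcn (-0.41 ± 0.09) and Pecam1 (-0.25 ± 0.07). With so few genes a list, counts of 0 or 2 are near that share.

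Among haem and antioxidant genes other than Hmox1, single genes rose in mutated spleens. Of 21 haem and iron genes 3 rose, a share near the 10.5% of all genes called, namely Hp, which encodes haptoglobin (1.31 ± 0.14, limma adjusted p = 1.5e-08), the biliverdin reductase gene Blvrb (0.43 ± 0.12) and the iron transporter gene Slc11a2 (0.30 ± 0.08). Of 6 NRF2 targets 3 rose, Gclm (0.57 ± 0.14), Nqo1 (0.27 ± 0.07) and Srxn1 (0.21 ± 0.05), and 1 fell, Slc7a11 (-0.20 ± 0.06). Neutrophil precursors and erythroid cells also express several of these genes, and their lists rose as given above. The part of those cells in these differences was not tested. Of 8 monocyte genes 4 rose and of 6 peritoneal macrophage genes F5 rose and Icam2 fell.

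Time after immunization went with lower levels of 5 of the 10 genes. The days hold different mice. Without unimmunized mice, an effect of immunization cannot be told apart from that of time itself, such as the age of the mice. The metallophilic marker Siglec1 and the red pulp genes Vcam1, Hmox1, Mrc1 and Spic were lower on day 44 than on day 15, whereas Marco and the brightest Cd209b probe were not called. Slc40a1 and Cd163 had positive differences that did not pass. Averaged over both genotypes 22.9% of genes were called in this comparison, 1905 higher and 1894 lower, which is the background for 5 called genes among 10.

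Siglec1 had lowest, median and highest log2 levels of 7.32, 8.19 and 8.70 in wild type spleens of day 15 and of 6.89, 7.59 and 8.43 on day 44. In mutated spleens they were 7.35, 7.96 and 8.43 on day 15 and 6.82, 7.61 and 8.33 on day 44. The ranges overlapped across experiments, but within each experiment 5 of 6 wild type spleens of day 44 lay below the lowest wild type spleen of day 15. Of the mutated spleens of day 44, 4 of 6 in experiment I and 2 of 6 in experiment II lay below the lowest mutated spleen of day 15. The difference over both genotypes was -0.45 ± 0.07 (1.37-fold, limma adjusted p = 1.8e-04). Within the same mice it differed from the day difference of Marco by -0.43 ± 0.10, given with no test.

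Vcam1 is an adhesion molecule that red pulp macrophages carry and that also marks activated endothelium. Its lowest, median and highest levels were 11.99, 12.93 and 13.30 on day 15 and 11.67, 12.22 and 13.39 on day 44 in wild type spleens. In mutated spleens they were 11.74, 12.88 and 13.24 on day 15 and 11.71, 12.38 and 12.93 on day 44. The medians of day 44 were lower in both genotypes, with overlap, and the difference was -0.46 ± 0.09 (1.38-fold, limma adjusted p = 6.9e-04).

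Hmox1 had the largest day difference of the 10 genes, -0.52 ± 0.10 (1.43-fold, limma adjusted p = 0.0010). In wild type spleens its lowest, median and highest levels were 9.47, 10.47 and 11.38 on day 15 and 8.06, 9.67 and 11.32 on day 44. In mutated spleens they were 9.47, 10.58 and 11.37 on day 15 and 8.64, 10.18 and 11.14 on day 44. These wide ranges came from the experiments: no spleen of experiment I reached the lowest spleen of experiment II of the same group. In experiment I alone, wild type medians were 9.72 on day 15 and 8.78 on day 44. Those groups did not overlap (lowest 9.47 against highest 9.26), and neither did they for Mrc1 (10.5 against 10.4). The share of all genes without overlap was not computed, and in that experiment alone 3402 genes were called for day in wild type spleens.

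Mrc1 differed by -0.41 ± 0.09 between the days (1.33-fold, limma adjusted p = 0.0020). Its medians were 10.81 on day 15 and 10.34 on day 44 in wild type spleens and 10.65 and 10.26 in mutated ones. Spic had the smallest of the called differences, -0.27 ± 0.09 (1.20-fold, limma adjusted p = 0.031). The medians of Spic were 11.08 and 10.79 in wild type spleens and 10.68 and 10.76 in mutated ones, where the mutated medians, which mix the experiments, did not follow the fitted direction. Within the experiments the mutated medians were 11.29 and 10.98 in experiment I and 10.33 and 10.01 in experiment II, lower on day 44 in each. The second Spic probe, at 8.43, gave -0.02 and was not called. The call for Spic was also lost without the 5 spleens with pancreas transcripts (-0.22, limma adjusted p = 0.16), and at 0.0505 and 0.0504 without 1 wild type spleen of day 44 from experiment I or from experiment II. The other 4 genes kept their calls without those 5 spleens, with limma adjusted p from 0.0046 for Siglec1 to 0.025 for Mrc1.

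The genes that were not called differed in sign. Slc40a1 was 0.20 ± 0.09 higher on day 44 (95% interval 0.02 to 0.38, limma adjusted p = 0.097) and Cd163 0.28 ± 0.14 higher (95% interval 0.01 to 0.55, adjusted p = 0.13). Leaving out 1 wild type spleen of day 15 brought Slc40a1 to an adjusted p of 0.042, and leaving out 1 of 2 mutated spleens of day 15 brought Cd163 to 0.049 or 0.048, all of experiment I. Timd4 differed by 0.08 ± 0.07, Marco by -0.02 ± 0.08 and Cd209b by -0.11 ± 0.11. The brightest and the dimmest Cd209b probe were not called for day, but the middle one was lower by -0.52 (limma adjusted p = 9.5e-04 over all probes), so the probes of Cd209b disagreed on time.

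**Figure D3:**
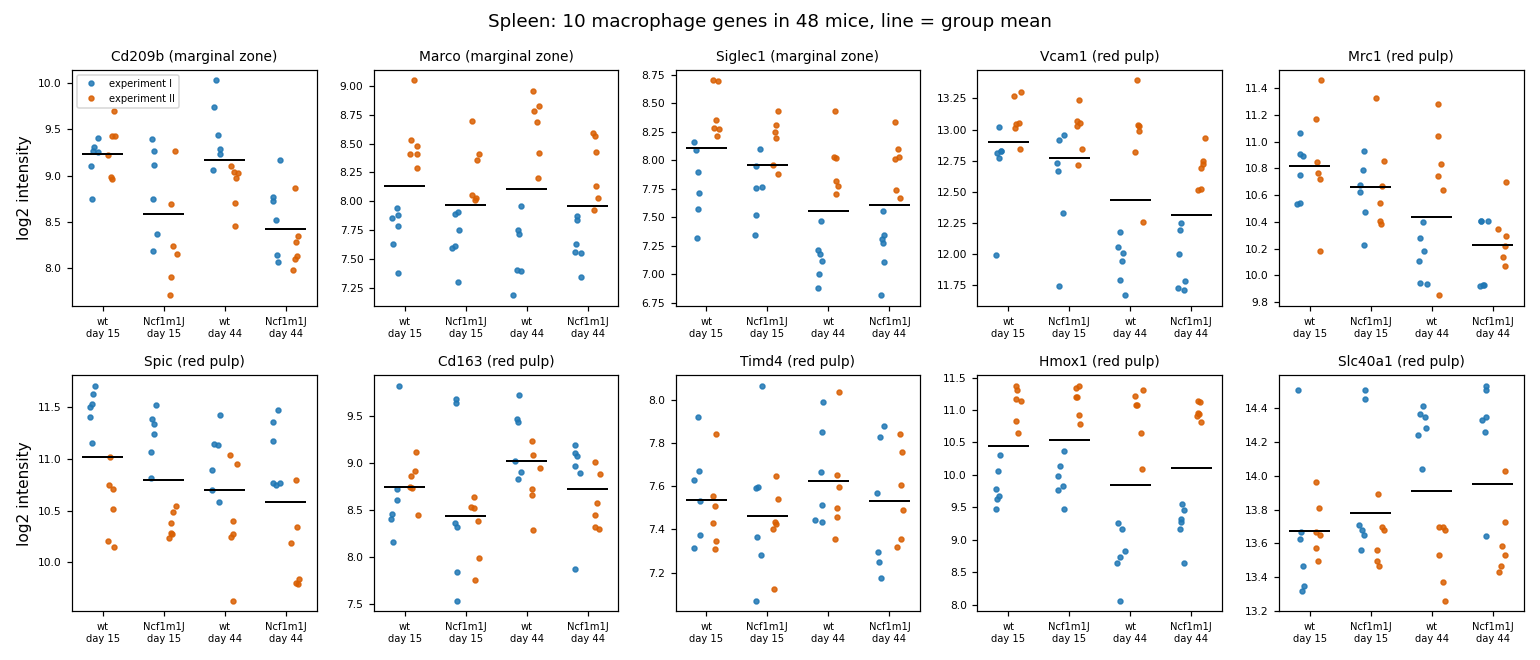
Log2 intensity of the brightest probe of each of the 10 genes (panels) in 48 spleens by genotype (wt or Ncf1m1J) and day; each point is 1 mouse, coloured by experiment, and lines are group means. Mutated mice lie low for Cd209b, day 44 lies low for Siglec1, Vcam1, Mrc1 and Hmox1, and the experiments stand apart for Hmox1, Marco and Spic.

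Within single genotypes fewer genes passed. In wild type spleens, where 1.52% of genes were called between the days, Siglec1 (-0.55 ± 0.10, limma adjusted p = 0.011), Vcam1 (-0.47 ± 0.12, adjusted p = 0.045) and Hmox1 (-0.61 ± 0.15, adjusted p = 0.045) were lower on day 44. In mutated spleens, where 1.74% were called, Vcam1 was lower (-0.46 ± 0.12, adjusted p = 0.042), while Siglec1 (-0.35 ± 0.10, adjusted p = 0.055) and Hmox1 (-0.43 ± 0.15, adjusted p = 0.093) missed the threshold. Leaving out each spleen in turn kept the wild type call of Siglec1 in 48 of 48 fits, those of Vcam1 and Hmox1 in 33 and 35, and the mutated call of Vcam1 in 35. Without the 5 spleens with pancreas transcripts, however, 0 of the 10 genes were called within either genotype. In wild type spleens Siglec1 was then -0.52 (limma adjusted p = 0.26), Vcam1 -0.36 (adjusted p = 0.53) and Hmox1 -0.51 (adjusted p = 0.53), in a fit that called 0 of all genes, and in mutated spleens Vcam1 was -0.43 (adjusted p = 0.097). The 2 genotypes were not shown to differ in their day effect, as the test given above called 0 genes.

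The size of the day difference was compared between the experiments. In experiment I the differences were -0.87 for Hmox1, -0.69 for Vcam1, -0.58 for Siglec1, -0.55 for Mrc1, -0.34 for Spic and 0.49 for Slc40a1, each with a limma adjusted p from 0.00039 to 0.019. In experiment II they were -0.17, -0.23, -0.32, -0.27, -0.19 and -0.08 in the same order, and none was called, in a fit that called 1 gene of all. Of 5 genes called over both experiments, all 5 were negative in each experiment. The test of the difference between experiments, which called 14.9% of genes, passed for Hmox1 (0.70 ± 0.18, limma adjusted p = 0.0086), Slc40a1 (-0.56 ± 0.16, adjusted p = 0.015) and Vcam1 (0.46 ± 0.16, adjusted p = 0.047). All 3 calls were lost without the 5 spleens with pancreas transcripts, which were all of experiment I: the values were then 0.68 for Hmox1, -0.46 for Slc40a1 and 0.38 for Vcam1, with limma adjusted p of 0.053, 0.12 and 0.22. With all spleens the test did not pass for Siglec1 (0.25 ± 0.14, adjusted p = 0.24), Mrc1 (0.28 ± 0.18, adjusted p = 0.32) or Spic (0.16 ± 0.19, adjusted p = 0.65).

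The strongest axis of variation among the 48 spleens moved with day in experiment I. After each experiment was centred, the first principal component held 39.8% of the variance, and its medians in experiment I were -0.29 and -0.21 in wild type and mutated spleens of day 15 and 0.13 and 0.20 on day 44. In experiment II the medians lay between -0.04 and 0.07, and there the component separated the genotypes on day 44, with wild type spleens from -0.12 to -0.0015 and mutated spleens from 0.03 to 0.19. On day 15 of experiment II the genotypes overlapped. As a description over 48 spleens, its correlation with gene levels was 0.84 for Slc40a1, -0.84 for Vcam1, -0.71 for Siglec1, 0.63 for Cd163, -0.58 for Mrc1, -0.57 for Hmox1 and -0.51 for Spic, but -0.07 for Cd209b and -0.12 for Marco. These pooled values hide unlike experiments. In experiment II alone, Cd209b (-0.59) and Marco (-0.58) had the most negative values of the 10 genes, against 0.08 and 0.04 in experiment I. The values for Slc40a1 (0.93, then 0.21), Cd163 (0.76, then -0.01) and Hmox1 (-0.67, then -0.03) were large in experiment I and smaller in experiment II. The part of this axis in the day and genotype differences was not tested.

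The 3 spleens of day 15 and experiment I that stood apart were the only ones of their 12 above 0 on this component, at 0.22, 0.16 and 0.16, within the range of the mutated day 44 spleens of that experiment (-0.03 to 0.23). They had Slc40a1 levels of 14.51, 14.51 and 14.46, while the other 9 lay from 13.32 to 13.71. Their Cd163 levels were 9.64, 9.82 and 9.68, against 7.53 to 8.72 in the other 9. Vcam1 ran the other way, at 11.74, 11.99 and 12.33 in the 3 and from 12.67 to 13.02 in the other 9, and so did Siglec1, at 7.52, 7.32 and 7.35 against 7.58 to 8.17. None of the 3 carried raised pancreas transcripts. Without them the fit called 5162 of all genes for day, against 3799 with all spleens, so called genes rose in number across the array. Of the 10 genes, 7 were then called for day. These were the 5 named above and, higher on day 44, Cd163 (0.45, limma adjusted p = 0.0011) and Slc40a1 (0.29, adjusted p = 0.0061). The 3 spleens were picked after the values were seen and on a component that these genes share. The larger differences without them therefore follow in part from the choice. Why they stood apart was not tested.

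In other gene lists, counts for day are to be read against the 22.9% of all genes called. Of 8 further red pulp genes 3 fell, Itgad (-0.31 ± 0.07), Treml4 (-0.31 ± 0.08) and Irf8 (-0.29 ± 0.10), and of 13 pan-macrophage genes 6 fell and 2 rose. The complement genes C1qb (-0.65 ± 0.15) and C1qc (-0.59 ± 0.15) were among those that fell, while Lgals3 (0.50 ± 0.10) and Vsig4 (0.39 ± 0.08) rose. Of 21 haem and iron genes 4 rose, a share under that of all genes, led by Blvra (0.49 ± 0.10), the other biliverdin reductase gene, and Slc48a1 (0.35 ± 0.11), a haem transporter gene. Beside these, 6 of 10 endothelial and stromal genes fell and 1 rose, 4 of 12 niche genes fell, which is not far from that share, 7 of 7 B cell genes fell and 5 of 8 T cell genes fell. Vcam1 is itself made by endothelium and stroma, and the part of those cells in its difference was not tested.

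The experiments differed in the levels of most of these genes. Experiment II had higher levels than experiment I of Hmox1 (1.58 ± 0.10), Marco (0.77 ± 0.08), Siglec1 (0.66 ± 0.07), Vcam1 (0.63 ± 0.09) and Mrc1 (0.22 ± 0.09), and lower levels of Spic (-0.82 ± 0.09), Slc40a1 (-0.41 ± 0.09) and Cd209b (-0.32 ± 0.11), all called in limma. That was 8 of 10 genes, where 55.1% of all genes were called. Extraction kit, storage of the tissue and cohort of mice cannot be told apart here.

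The 10 genes did not vary together over mice. After the group and experiment terms of the fit were removed, 45 pairs were correlated over 48 spleens with permutation tests. Of these pairs 16 had a Benjamini-Hochberg adjusted p under 0.05, 12 positive and 4 negative. Day differences that differed between the experiments were left in the values. The red pulp genes Vcam1, Mrc1, Spic and Hmox1 were correlated with each other in these values. The share of related pairs over all genes was not computed, so the 16 pairs have no background beside them. Vcam1 had higher r with genes outside the 10, such as Wsb2 (0.88) and Uqcrc2 (0.85), so the block is not shown to be particular to red pulp genes. Cd163 and Slc40a1 formed a separate pair.

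In the first block, Pearson's r was 0.73 for Vcam1 with Mrc1 (Spearman's rho 0.76), 0.68 for Vcam1 with Hmox1 (rho 0.72), 0.66 for Vcam1 with Spic (rho 0.66), 0.71 for Mrc1 with Spic (rho 0.71) and 0.66 for Mrc1 with Hmox1 (rho 0.71). For Cd163 with Slc40a1, r was 0.78 (rho 0.76). All 6 pairs, for r and for rho, had a permutation p of 1e-05, the smallest that 100000 permutations can give, and an adjusted p of 7.5e-05. These 6 were also the pairs that passed in both experiments taken alone. The values were not fitted again within each experiment, and what was left of the day differences can add to r with the same sign in both. Passing in both is therefore no independent repeat. Without the 2 spleens farthest from the median the r of these 6 pairs ran from 0.61 to 0.75. Without the 3 spleens that stood apart, their r ran from 0.65 to 0.77, each with an adjusted permutation p of 7.5e-05. Spic with Hmox1 had r = 0.46 (rho 0.44, adjusted permutation p = 0.0045 and 0.0078) and did not pass in experiment II.

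The 4 negative relations were weaker without the 3 spleens that stood apart. They joined Vcam1 with Cd163 (r = -0.52, rho = -0.46) and with Slc40a1 (r = -0.46, rho = -0.44), and Siglec1 with Cd163 (r = -0.43, rho = -0.40) and with Slc40a1 (r = -0.42, rho = -0.40). Their adjusted permutation p for r was 0.0009, 0.004, 0.0085 and 0.0098, in the same order, and 0.0066, 0.0078, 0.017 and 0.016 for rho. In experiment I Vcam1 and Slc40a1 had r = -0.73, and in experiment II 0 of these 4 pairs passed. Without the 3 spleens, which were picked on a component that these genes share, the 4 values of r stayed negative, from -0.35 to -0.31, and 0 of the 4 passed (adjusted permutation p from 0.095 to 0.14). Cd209b was related only to Slc40a1 (r = 0.42, rho = 0.46, adjusted permutation p = 0.011 for r and 0.0066 for rho) and, for r alone, to Cd163 (r = 0.36, adjusted permutation p = 0.031, rho = 0.34, adjusted p = 0.052), and not to Marco (r = 0.24, rho = 0.24, adjusted permutation p = 0.21 and 0.22). Marco was related to Timd4 (r = 0.44, rho = 0.45, adjusted permutation p = 0.0068 and 0.0066). Cd163 with Timd4 (r = 0.49, rho = 0.44, adjusted permutation p = 0.0022 and 0.0078) and, for r, Siglec1 with Vcam1 (r = 0.36, rho = 0.31, adjusted permutation p = 0.035 and 0.077) and Cd209b with Cd163 did not pass without the 3 spleens, which left 9 pairs of 45. Without the spleens with pancreas transcripts, Cd209b with Cd163 and Siglec1 with Vcam1 did not pass for r either. Both then had r = 0.34 and an adjusted permutation p of 0.070. The other related pairs still passed for r without those spleens.

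**Figure D4:**
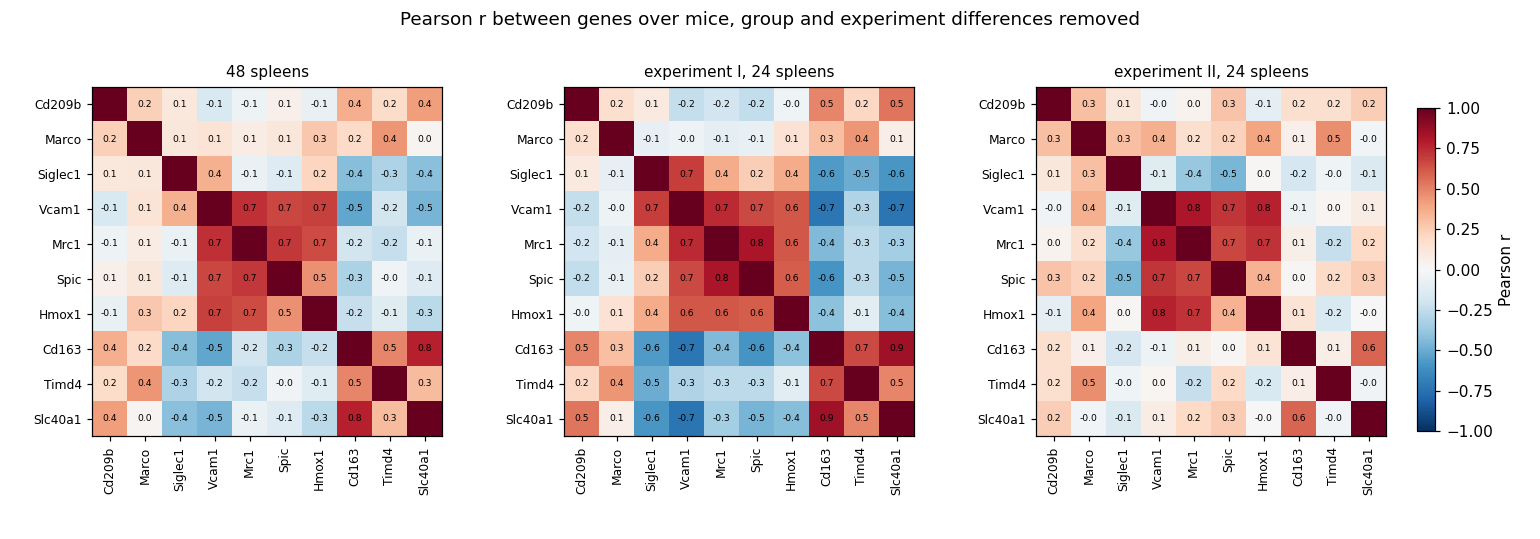
Pearson's r (colour and printed value) for each pair of the 10 genes, in all 48 spleens, in 24 of experiment I and in 24 of experiment II. The group and experiment terms of the fit were removed, but not day differences that differed between the experiments. Vcam1, Mrc1, Spic and Hmox1 form a block in each panel, Cd163 pairs with Slc40a1, and the values of Vcam1 with Cd163 and Slc40a1, -0.72 and -0.73 in experiment I, lie near 0 in experiment II.

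Among all genes, those most like each member by r over the same 48 residual values differed from gene to gene. For Cd209b they were Ehd4 (0.64), Cyp4v3 (0.61) and Igfbp4 (0.60), lower values than for most other members. For Marco they were Arf6 (0.59), Mgat3 (0.59) and Spast (0.58), and for Siglec1 Mdk (0.77), Txlna (0.76) and Arhgef15 (0.75). For Vcam1 they were Wsb2 (0.88), Fcna (0.87) and Ube2d2a (0.86), where Fcna encodes the lectin ficolin A. For Spic they were Scp2 (0.85), Lyz2 (0.84) and Rsl1d1 (0.83), where Lyz2 encodes the lysozyme of myeloid cells, and for Mrc1 Fundc1 (0.82), Tmed10 (0.82) and Ssr3 (0.78). Hmox1 was most like Sec13 (0.73), Vcam1 (0.68) and Fcna (0.67), so Vcam1 and Fcna recur. Slc40a1 was most like Rab32 (0.90), Mfsd1 (0.90) and Uqcc1 (0.90), Cd163 like Degs1 (0.87), Trmt6 (0.86) and Tmem203 (0.85), and Timd4 like Rassf3 (0.80), Pde8a (0.78) and R3hdm2 (0.76). These values describe the same spleens, share their arrays and are given with no test.

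Blood gave low levels of most of the 10 genes. The brightest probes of 5 genes, Cd209b, Marco, Siglec1, Vcam1 and Cd163, had mean log2 levels from 6.01 to 6.20 in blood, under the 95th percentile of the odorant receptor probes there. In spleen all 10 were above that reference. Slc40a1 was far above the reference in blood with a mean of 10.26 (it is also made by red cell precursors), and Mrc1 had 7.04. Spic at 6.51, Hmox1 at 6.42 and Timd4 at 6.35 were just above the reference.

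The 2 tissues had been normalised apart, so their difference is given without a test. In spleen the mean of Vcam1 was 12.60 against 6.13 in blood, that of Spic 10.78 against 6.51, that of Cd209b 8.85 against 6.09 and that of Slc40a1 13.83 against 10.26. Timd4 had the smallest gap, 7.54 against 6.35.

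Neither genotype nor day moved the 10 genes detectably in blood. For genotype 0 of 10 were called, where 1.13% of genes were, and for day 0 of 10, where 0.0783% were. At an unadjusted p under 0.05, 1462 genes passed for genotype and 1571 for day. Cd209b differed by -0.01 ± 0.05 between genotypes in blood, where it lay at background. Slc40a1, well measured in blood, differed by 0.20 ± 0.14 between genotypes (limma adjusted p = 0.79) and by -0.42 ± 0.14 between days (adjusted p = 0.28). Over both experiments the latter was opposite in sign to its spleen difference, which was not called either. In experiment II alone the day difference was negative in both tissues, -0.18 in blood and -0.08 in spleen. The lowest, median and highest blood levels of Slc40a1 were 9.56, 10.31 and 11.98 in wild type mice of day 15 and 8.91, 9.90 and 10.84 on day 44, with wide overlap.

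**Figure D5:**
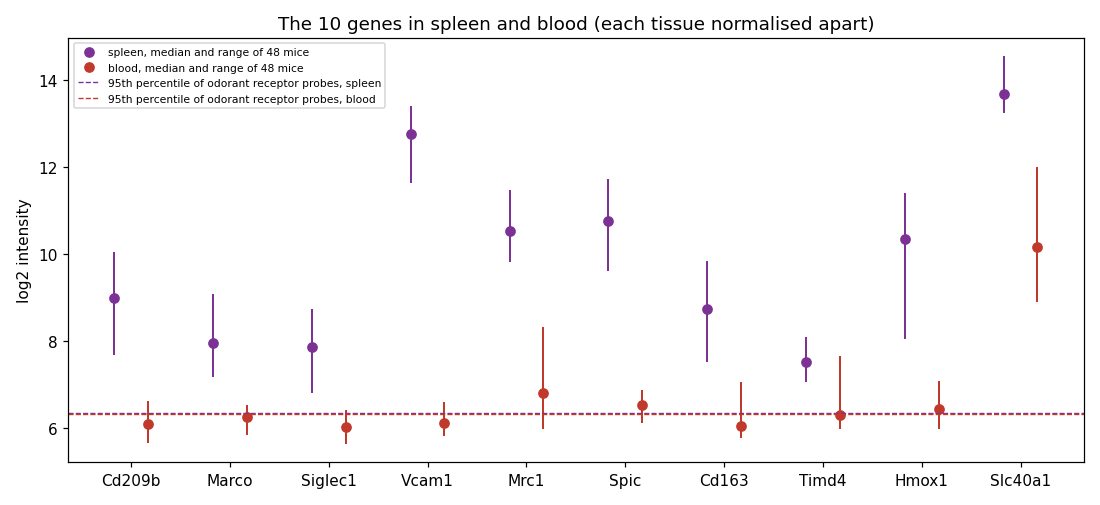
Log2 intensity of the brightest probe of each of the 10 genes in spleen and blood; points are medians and bars the lowest to highest value of 48 mice, and dashed lines mark the 95th percentile of odorant receptor probes (6.33 in spleen, 6.31 in blood). Each gene is higher in spleen, and in blood only Slc40a1 is far above the dashed lines.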

How the data were processed

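Total RNA of 48 spleens and 48 blood samples was depleted of globin transcripts, per the labels' protocols, with different extraction kits in the 2 experiments, and amplified to labelled cRNA for Illumina bead arrays. The deposited values are linear intensities, quantile normalised within each tissue as the values show; limma is named in the submitters' processing notes, and no further step is stated in the labels. The analysis plan had assumed log2 values, so log2 was taken first. Of 25697 probes 23978 named 1 gene; the brightest probe over 96 arrays stood for each of 16593 genes. Spleen and blood were fitted apart with limma 3.58.1 in R 4.3.3 (4 groups and experiment as terms, eBayes, Benjamini-Hochberg over all genes). The fit was tested on simulated data. Day averaged over both genotypes, day by experiment, the fit without 3 spleens and the odorant receptor reference were added after seeing the data. Relations used residuals from the spleen fit and 100000 permutations. The 10 genes are named throughout; of each other list, up to 4 called genes with the smallest adjusted p for genotype, and for each of the 10 the 3 genes with the highest r. The list genes named for day and the uncalled ones were picked after their values were seen. The members and lists were chosen with earlier results of these data known. Alternatives are in the closing section.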

Additional observations from a re-analysis of the deposited data

Results flagged for a closer look

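The day difference in spleen differed between the experiments for 3 of the 10 genes, by a test of the difference itself that called 14.9% of all genes. For Vcam1 the day difference was higher in experiment II than in experiment I by 0.457 on the log2 scale, and for Hmox1 by 0.699, as the day difference was smaller in size in experiment II for both. For Slc40a1 the difference was -0.564, from 0.49 in experiment I to -0.08 in experiment II. Without the 5 spleens with pancreas transcripts, all of experiment I, these were 0.38, 0.68 and -0.46, with limma adjusted p of 0.22, 0.053 and 0.12. The cause was not tested.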

How the results depend on the processing

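Cd209b kept its lower level in mutated spleens over both days, with an adjusted p under 0.05, under each of 12 alternatives, from -0.62 to -0.78. Array weights called 2 of the 10 genes for genotype, adding Mrc1 (-0.26, limma adjusted p = 0.042), and leaving out the 3 day 15 spleens that stood apart called 2, adding Cd163 (-0.38). On day 15 alone the count was 0 in experiment I, in experiment II, with only the groups compared and without the 5 spleens with pancreas transcripts, and on day 44 it was 0 in either experiment alone, where 6 mice stand against 6. For day over both genotypes, 3 genes were called with no experiment term and 0 in experiment II alone. For day in wild type spleens, 6 were called in experiment I alone, 5 with array weights, 1 with every probe tested or with only the groups compared, and 0 with no experiment term, in experiment II alone or without the pancreas arrays; leaving out 1 mouse gave 1 to 5. In mutated spleens 3 were called among genes above the median level and with array weights, 2 with only the groups compared, and 0 with no experiment term, in either experiment alone or without the pancreas arrays; leaving out 1 mouse gave 0 to 4. Day by experiment called 0 genes of the 10 without the pancreas arrays, and blood day called 1, Timd4 (-0.24), in experiment II alone. Of 45 pairs 16 were related, 9 without the 3 spleens and 6 in experiment II alone. Without the pancreas arrays, Cd209b with Cd163 and Siglec1 with Vcam1 were no longer related. The causes were not tested. Over all genes the genotype count ran from 581 to 2282 around 1748, on day 15 from 2 to 531 around 410, on day 44 from 52 to 1264 around 861; the day count ran from 1 to 5162 around 3799, in wild type from 0 to 3402 around 252, and in mutated spleens from 0 to 1406 around 288. No paired analysis was possible for genotype or day, because the groups hold different mice and the replicate numbers do not pair them; spleen and blood of a mouse do pair, and their levels are given with no test since the tissues were normalised apart. Dim probes (the second Cd163 probe, and 5 genes in blood) lay near the reference, so differences there were not detectable.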
